A study of Mus musculus with 8 samples.

Results

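Transcripts of the heat shock chaperones were described across 8 arrays of mouse T helper cells that carried or lacked Tet2. The named set held 10 genes: Hsph1, Hspa8, Hsp90aa1, Hsp90ab1, Hspd1, Hspe1, Dnaja1, Dnajb1, Hspa1a and Hspa1b. A gene was read through the probesets (groups of array probes summarised to 1 value) that the platform annotation pairs with its symbol alone, and of several probesets the one with the highest 8-array mean stood for the gene. This gave values for 8 of the 10 genes, among 19938 genes with such a probeset. Hspa1b is paired only with a probeset it shares with Hspa1a, which is given below, and Hsp90ab1 was not analysed here.

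The cells were CD4+ T cells of C57BL/6 mice, sorted as naive (CD25-negative, CD62L-high, CD44-low) from spleen and lymph node and activated through CD3 and CD28. Th1 cultures contained IL-12 (10 ng/ml) and IL-2 (30 U/ml) while IL-4 was blocked by antibody, and Th17 cultures contained IL-6 (10 ng/ml) with TGF-β1 (0.5 ng/ml) while IL-4 and interferon-γ were blocked. Wild-type and Tet2-/- cells of each lineage made up 4 groups with 2 arrays each, called biological replicates in the labels. The sources used here do not give the origin of the Tet2-/- allele, the age of the mice, or whether these Th17 cultures also contained IL-1β or IL-23. The labels do not say that the replicates came from separate animals, so p-values measure only the spread between these arrays.

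Heat shock chaperones bind unfolded or partly folded proteins and keep them from clumping. HSP70 proteins (Hspa8, Hspa1a, Hspa1b) hold and release a client in a cycle driven by ATP, J-domain proteins (Dnaja1, Dnajb1) bring clients and start the cycle, and Hsph1 exchanges the spent nucleotide. HSP90 (Hsp90aa1, Hsp90ab1) finishes the folding of kinases and receptors, several of them in T cell receptor signalling, while Hspd1 and Hspe1 form the folding chamber of the mitochondrion and its lid. The transcription factor Hsf1 raises many of these genes under heat or proteotoxic stress by binding heat shock elements, inverted repeats of the letters GAA, and activated T cells are known to make more HSP70 and HSP90 than resting ones.

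The sequences below show letter matches to heat shock elements near some of these genes. They are a stretch between the start sites of the chaperonin pair, bases before the starts of the HSP70 pair, and a site of Hsph1. The HSP70 stretches lie before the starts and do not show which gene a probeset reads. The sequences come from RefSeq promoter windows of GRCm38.p6, 250 bases before to 50 after each start, and 7 of the 10 genes matched a window. Capitals mark heat shock elements, which were searched on both strands. A match of 2 units is GAANNTTC or TTCNNGAA, present in 15.1% of all 32851 windows, and is marked in the HSP70 pair. A match of 3 units, which contains 2 shorter ones, adds any 2 bases and a further GAA or TTC in turn, is present in 198 windows (0.603%), and is marked in the others.
Hspd1-Hspe1 interval, plus strand, chr1:55087933-55088147: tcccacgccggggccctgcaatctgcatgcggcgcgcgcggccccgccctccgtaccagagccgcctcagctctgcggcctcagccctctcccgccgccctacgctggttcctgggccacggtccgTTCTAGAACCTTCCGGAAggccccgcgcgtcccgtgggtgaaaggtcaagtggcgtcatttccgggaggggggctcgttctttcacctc
Hspa1a, minus strand, chr17:34972157-34972276: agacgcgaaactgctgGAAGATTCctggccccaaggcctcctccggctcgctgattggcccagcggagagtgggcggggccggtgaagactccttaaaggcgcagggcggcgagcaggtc
Hspa1b, minus strand, chr17:34959239-34959358: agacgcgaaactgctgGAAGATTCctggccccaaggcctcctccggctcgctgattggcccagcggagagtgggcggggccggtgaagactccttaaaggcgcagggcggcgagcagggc
Hsph1 site, minus strand, chr5:149636281-149636307: ctgcagaTTCTGGAAAGTTCtcctcag

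Hspd1 and Hspe1 are read away from each other, and 215 bases separate their start sites at 55087932 and 55088148 (a further Hspd1 start lies at 55088243). Those bases hold 1 run of 4 units over 18 bases, which begins 127 bases from the Hspd1 start and lies inside a window of each gene. The Hspa1a and Hspa1b windows differed at 4 of 300 positions (98.7% identity), and each held 1 match of 2 units at position -104 and none of 3 units. The Hsph1 match of 3 units lies 36 or 15 bases after its annotated starts, in the transcribed part. The windows of Dnajb1 held no match of either kind, and 1 of 3 windows of Dnaja1 held a match of 2 units. These are letter matches, and binding of a factor was not measured here.

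Array medians ran from 6.47 to 6.53 log2 units. The lineage labels matched their markers: Il17f, a Th17 cytokine, read 6.55 to 6.85 on the Th1 arrays and 10.61 to 11.03 on the Th17 arrays, and Ifng, the Th1 cytokine, 10.18 to 11.89 and 6.00 to 6.07. The mean of 6 CD4 T cell markers lay between 10.70 and 11.02 on every array, while the means of the B cell, myeloid and NK lists stayed between 4.40 and 5.51. The Tet2 probeset read 7.97 to 8.14 on Th1 and 8.37 to 8.53 on Th17 arrays of both genotypes. Whether it lies in the deleted part is not known here, so it checks no label. Sex-linked transcripts set the Th17 arrays apart from each other. Xist, expressed from the inactive X of female cells, read 4.83 to 5.11 on the Th1 arrays. On the Th17 arrays it was 5.20 for replicate 1 and 10.09 for replicate 2 of the wild-type cells, and 8.62 and 11.27 for those lacking Tet2. Averaged over Kdm5d, Uty and Eif2s3y, which lie on the Y chromosome, the level was lowest (4.85) in Th17 Tet2-/- replicate 2 and highest (8.80) in Th17 wild-type replicate 1. Results were also computed without those 2 arrays, which leaves 1 array in each Th17 group. The Th17 arrays that remain read 10.09 and 8.62 for Xist, above every Th1 array. Leaving those 2 out therefore cannot separate sex-linked differences from lineage.

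None of the 8 measured chaperones passed the test in any of the 5 comparisons made with limma (adjusted p under 0.05 over all 19938 genes). With 2 arrays against 2, an exact permutation test cannot go below p = 0.333, so the tests rest on limma's spread, which draws on all genes. On the chosen probesets all 8 read lower without Tet2 in Th1 cells, by 0.03 to 0.29 log2 units, and in Th17 cells 6 of 8 did. Other single-symbol probesets of these genes ran from -0.35 (Hspd1, 10354732) to 0.10 (Hspa8, 10584572) in Th1 cells, so the shared direction depended on the probeset chosen. Between lineages, Hspa1a and Hsph1 read lower in Th17 than in Th1 cells of both genotypes. Dnajb1 read higher in Th17 cells among Tet2-/- cells, while among wild-type cells the difference was 0.08 and the arrays overlapped. Among Tet2-/- cells 2 of 8 members, Dnajb1 and Hspa1a, had an unadjusted limma p under 0.05, as did 24.5% of all genes. Among wild-type cells 0 of 8 did, against 24.4% of all genes. The background was 0.00502% of genes called for Tet2 loss in Th1 cells, 0% in Th17 cells and 0% for the difference between the 2 effects. An unadjusted limma p under 0.05 was reached by 1145 (5.74%), 848 (4.25%) and 908 genes (4.55%) in the same order. For Th17 against Th1 cells it was 8.47% (5.3% higher, 3.17% lower) in wild-type and 10.4% (7.14% higher, 3.29% lower) in Tet2-/- cells. In bulk cultures like these, fewer cells that make a transcript and less of it per cell cannot be told apart.

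**Figure D1:**
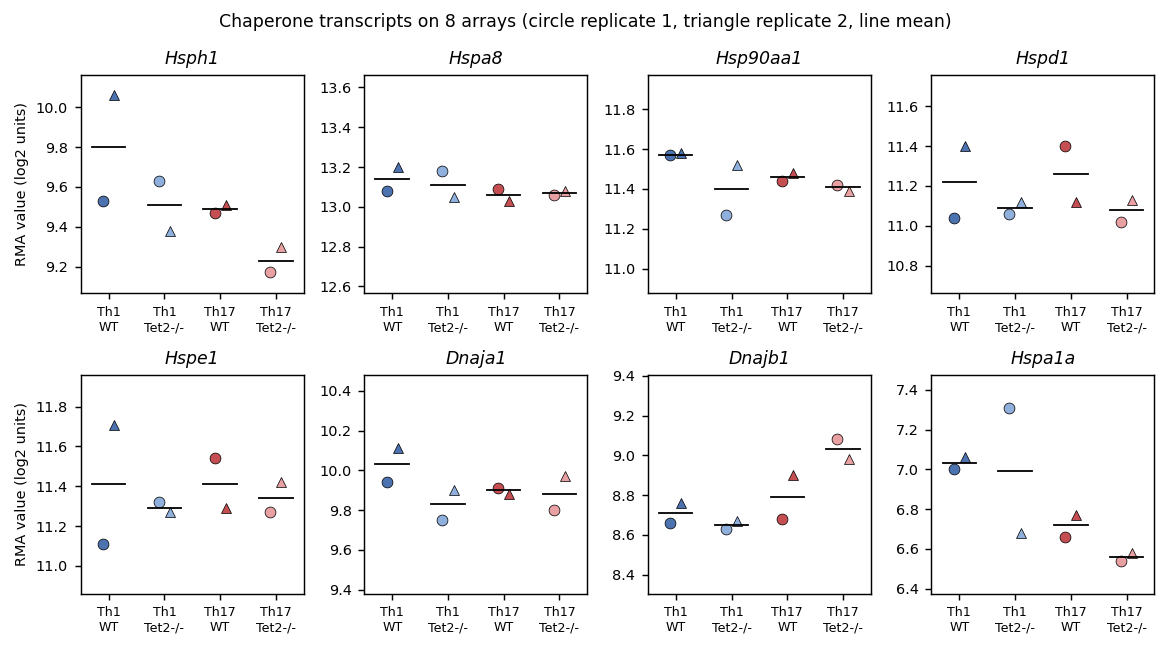
RMA value in log2 units (vertical axis, 1.1 units tall in each panel) of the 8 measured chaperones on each array, by group; circles are replicate 1, triangles replicate 2 and lines group means. Hsph1 stands highest in Th1 wild-type replicate 2 (10.06), Hspa1a in Th1 Tet2-/- replicate 1 (7.31), and the Dnajb1 points of Tet2-/- Th17 cells (8.98 and 9.08) lie above all others of that gene.

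Hspa8, the constitutive HSP70 of the cytosol, had the narrowest span of the set on its chosen probeset, which lies near the top of the array's range, where differences can be narrowed. Its probeset (10528021) read 13.08 and 13.20 in Th1 wild-type, 13.18 and 13.05 in Th1 Tet2-/-, 13.09 and 13.03 in Th17 wild-type and 13.06 and 13.08 in Th17 Tet2-/- cells. The groups overlapped throughout, and the whole span of 0.17 log2 units was smaller than that of all but 1.94% of genes. The difference with Tet2 loss was -0.03 (SE 0.119, confidence interval -0.29 to 0.23) in Th1 and 0.00 (-0.25 to 0.26) in Th17 cells. With 2 arrays a group, differences inside these intervals cannot be told from 0. Larger ones can also stay uncalled, as for Dnajb1 between Tet2-/- lineages (0.38, SE 0.123, limma adjusted p = 0.0715). Other Hspa8 probesets were less even. Probeset 10584572 spanned 0.98 units, with 11.98 in Th17 wild-type replicate 2 and 12.70 to 12.96 on the other 7 arrays, while 10368025 spanned 0.26 units. Whether each of these probesets reads Hspa8 itself or copies of it was not tested, so the narrow span holds for the chosen probeset only. The same limit applies to the probesets of Hsp90aa1.

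A pair of probesets that the annotation shares between Hspa8 and the small nucleolar RNAs Snord14c and Snord14d, which are encoded in Hspa8 introns, behaved differently from the single-symbol ones. Probeset 10584576 read 10.28 and 10.13 in wild-type and 9.75 and 9.73 in Tet2-/- Th17 cells, so these groups did not overlap. In the Th1 cells it read 10.17 and 10.14 in wild-type and 10.00 and 10.04 in Tet2-/- cells. The difference with Tet2 loss was -0.47 in Th17 (SE 0.0976, adjusted p = 0.88 by limma over 35556 probesets, of which 0% were called) and -0.14 in Th1 cells (adjusted p = 0.944). Probeset 10584578 read within 0.01 of it on each array. Which of these transcripts gave the signal was not tested.

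Hspa1a, the stress-inducible HSP70, lay close to the array medians and was uneven between replicates. It read 7.0 and 7.06 in Th1 wild-type, 7.31 and 6.68 in Th1 Tet2-/-, 6.66 and 6.77 in Th17 wild-type and 6.54 and 6.58 in Th17 Tet2-/- cells. All 4 Th17 arrays lay below both wild-type Th1 arrays, and the highest array was Th1 Tet2-/- replicate 1. Only 0.562% of genes had a wider gap between the 2 arrays of Th1 Tet2-/- cells than Hspa1a. Th17 minus Th1 gave -0.43 among Tet2-/- cells (1.35-fold lower, SE 0.166, confidence interval -0.79 to -0.07, limma adjusted p = 0.126) and -0.31 among wild-type cells (1.24-fold lower, adjusted p = 0.273). Without Th1 Tet2-/- replicate 2 the first of these became -0.75 (adjusted p = 0.00822, against up to 0.733 over 19 alternatives), and without replicate 1 of that group it was -0.11.

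The probeset shared by Hspa1a and Hspa1b (10450367) was likewise lowest on the Th17 arrays. It read 8.37 and 8.46 in Th1 wild-type, 8.73 and 8.30 in Th1 Tet2-/-, 8.08 and 8.07 in Th17 wild-type and 8.18 and 7.99 in Th17 Tet2-/- cells. Every Th17 array lay below every Th1 array. Th17 minus Th1 was -0.34 among wild-type (adjusted p = 0.292 over probesets, 1.75% called) and -0.43 among Tet2-/- cells (adjusted p = 0.201, 2.99% called), so neither was called. Tet2 loss gave 0.10 in Th1 and 0.01 in Th17 cells. Which of the 2 genes each probeset reads was not tested.

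Hsph1, the HSP110 that exchanges nucleotide on HSP70, had the widest span of the measured chaperones, 0.89 log2 units, wider than 92.4% of genes. It read 9.53 and 10.06 in Th1 wild-type, 9.63 and 9.38 in Th1 Tet2-/-, 9.47 and 9.51 in Th17 wild-type and 9.17 and 9.30 in Th17 Tet2-/- cells. The Tet2-/- Th17 arrays lay below all others, while the Th1 genotypes overlapped. Tet2 loss gave -0.25 in Th17 (1.19-fold lower, SE 0.165, confidence interval -0.61 to 0.10) and -0.29 in Th1 cells (1.22-fold lower, -0.65 to 0.07), with limma adjusted p of 0.999 and 0.855. The difference between these effects was 0.04 (confidence interval -0.47 to 0.54). Th17 minus Th1 was -0.31 in wild-type and -0.27 in Tet2-/- cells (adjusted p = 0.279 and 0.351), and the lineages did not overlap in either genotype. Without Th1 wild-type replicate 2 the differences were -0.04 between wild-type lineages and -0.02 with Tet2 loss in Th1 cells, and without replicate 1 of that group they were -0.57 and -0.56 (adjusted p = 0.0548 and 0.348).

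Dnajb1, the heat-inducible J-domain partner of HSP70, gave the smallest p of the set. It read 8.66 and 8.76 in Th1 wild-type, 8.63 and 8.67 in Th1 Tet2-/-, 8.68 and 8.90 in Th17 wild-type and 9.08 and 8.98 in Th17 Tet2-/- cells. Both Tet2-/- Th17 arrays lay above the other 6, and the other 3 groups had neighbouring means of 8.65, 8.71 and 8.79. Th17 minus Th1 was 0.38 among Tet2-/- cells (1.30-fold higher, SE 0.123, confidence interval 0.11 to 0.65, limma adjusted p = 0.0715) and 0.08 among wild-type cells (-0.18 to 0.35, adjusted p = 0.731; -0.06 after quantile normalization). The Tet2-/- difference passed the threshold with dim genes left out (adjusted p = 0.0495, against up to 0.347 over 19 alternatives) and was 0.22 (adjusted p = 0.265) after quantile normalization. Tet2 loss gave 0.24 in Th17 cells (SE 0.123, adjusted p = 0.999) and -0.06 in Th1 cells, and the difference between those effects was 0.30 (-0.08 to 0.67, adjusted p = 0.999). Without Th17 wild-type replicate 1 or 2, the Th17 effect was 0.13 or 0.35 and the difference between effects 0.19 or 0.40. The arrays with the highest Dnajb1 also had the highest mean of 7 stromal markers, 7.27 and 7.35, against 6.94 and 7.05 in wild-type Th17 cells and 6.62 to 6.81 on the Th1 arrays. Between Tet2-/- lineages limma called 3 of these markers higher and 1 lower, beside 7.14% and 3.29% of all genes. By direction alone 4 of 7 read higher and 3 lower. Lum, a matrix protein of fibroblasts, rose 7.29-fold (limma adjusted p = 8.82e-08), while Sparc fell 2.09-fold (0.000636). Col1a1 read 7.30 and 7.40 in Tet2-/- Th17 against 7.42 and 7.59 in Tet2-/- Th1 cells, and Col1a2 7.06 and 7.05 against 7.24 and 7.38. The part of these markers in the Dnajb1 values was not tested.

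Dnaja1, the J-domain protein that serves cytosolic HSP70 constitutively, differed little on its chosen probeset (10521587). It read 9.94 and 10.11 in Th1 wild-type, 9.75 and 9.90 in Th1 Tet2-/-, 9.91 and 9.88 in Th17 wild-type and 9.80 and 9.97 in Th17 Tet2-/- cells. The Th1 genotypes did not overlap on it (-0.20, SE 0.127, confidence interval -0.47 to 0.08, limma adjusted p = 0.878), and the Th17 genotypes did (-0.01). On probeset 10503995 Tet2 loss in Th1 cells gave 0.04, with overlapping arrays (7.49 and 7.93 in wild-type, 7.85 and 7.66 in Tet2-/- cells). Its probesets went different ways between lineages. Probeset 10503995 read 7.49 to 7.93 on the Th1 and 8.04 to 8.14 on the Th17 arrays, a difference of 0.38 in wild-type cells (adjusted p = 0.256 over probesets), where the chosen one gave -0.13. A probeset that Dnaja1 shares with Mir207 (10504000) gave -0.17 and -0.27 for Th17 minus Th1 in wild-type and Tet2-/- cells (adjusted p = 0.402 and 0.216). For Tet2 loss in Th1 cells that shared probeset gave 0.04. No single direction between lineages, or with Tet2 loss in Th1 cells, can therefore be given for Dnaja1.

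Hsp90aa1, the inducible cytosolic HSP90, read 11.57 and 11.58 in Th1 wild-type, 11.27 and 11.52 in Th1 Tet2-/-, 11.44 and 11.48 in Th17 wild-type and 11.42 and 11.39 in Th17 Tet2-/- cells. Th1 Tet2-/- replicate 1, the array where Hspa1a was highest, had the lowest Hsp90aa1. In each lineage the Tet2-/- arrays lay below the wild-type arrays, by -0.18 in Th1 (SE 0.126, confidence interval -0.45 to 0.09, limma adjusted p = 0.893) and -0.05 in Th17 cells (adjusted p = 0.999). The Th1 value was -0.30 without Tet2-/- replicate 2 and -0.05 without Tet2-/- replicate 1. The gap between the nearest Th17 arrays of the 2 genotypes was that from 11.44 to 11.42. Its other probesets, 10402615 and 10490946, had the same low array at 11.23 and 10.83.

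Hspd1 (HSP60) and Hspe1 (HSP10), the chamber and lid of the mitochondrial chaperonin, shared their 2 highest arrays. Hspd1 read 11.04 and 11.40 in Th1 wild-type, 11.06 and 11.12 in Th1 Tet2-/-, 11.40 and 11.12 in Th17 wild-type and 11.02 and 11.13 in Th17 Tet2-/- cells. Hspe1 read 11.11 and 11.71, 11.32 and 11.27, 11.54 and 11.29, and 11.27 and 11.42 in the same order. These were Th1 wild-type replicate 2 and Th17 wild-type replicate 1, and the other replicate of each of these groups read lower. Their lowest arrays were not the same: Th17 Tet2-/- replicate 1 for Hspd1 and Th1 wild-type replicate 1 for Hspe1. On the chosen probesets the Tet2-/- arrays lay inside the wild-type range of their lineage except Th17 replicate 1, which lay under it for both genes. Tet2 loss gave -0.13 and -0.18 for Hspd1 and -0.12 and -0.07 for Hspe1 in Th1 and Th17 cells, all with adjusted p of 0.942 or more by limma. Lineage differences in the same genes ran from -0.01 to 0.05, with intervals from -0.38 to 0.43. The further probesets of both genes, 10354732 and 10346303, had the same highest arrays, at 11.22 and 11.07 for Hspd1 and at 11.14 and 11.02 for Hspe1. On 10354732 both Th1 Tet2-/- arrays (10.56 and 10.55) lay below both wild-type arrays (10.58 and 11.22). The difference there was -0.35 (limma adjusted p = 0.94 over probesets). In Th17 cells the Tet2-/- arrays lay inside the wild-type range on both further probesets.

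**Figure D2:**
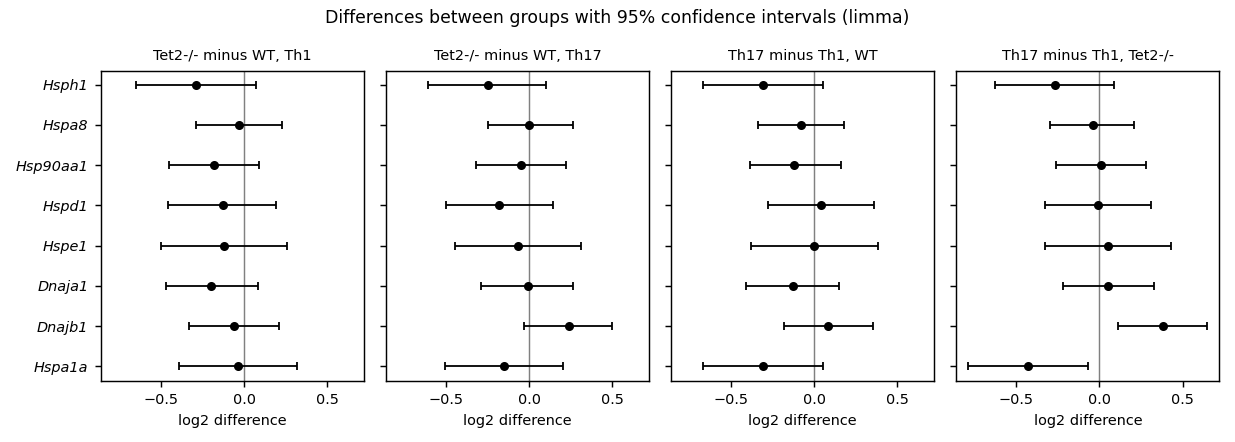
Log2 difference (horizontal axis) of each measured chaperone in 4 comparisons, with 95% confidence intervals from limma. Intervals cover 0 except for Dnajb1 (0.11 to 0.65) and Hspa1a (-0.79 to -0.07) between Tet2-/- Th17 and Th1 cells, where neither passed the adjusted threshold.

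Across the set, Tet2 loss in Th1 cells gave a median difference of -0.13, against 0.01 for all genes, of which 47.8% read lower. In Th17 cells the median was -0.06, against 0.02 for all genes (43.4% lower). The Th1 figure depended on single arrays. Without Th1 wild-type replicate 2, 5 of 8 members read lower, Hspe1 turned to 0.18, Hspd1 to 0.04 and Hspa8 to 0.03, and Hsph1 to -0.02. Without Th1 Tet2-/- replicate 2, Hspa8 turned to 0.03 and Hspa1a to 0.28. For 32.7% of all genes in Th1 and 33.2% in Th17 cells the arrays of the 2 genotypes did not overlap in either direction. On the chosen probesets they did not overlap, with Tet2-/- lower, for 2 of 8 members in Th1 cells (Hsp90aa1 and Dnaja1), where 14.4% of all genes did so. In Th17 cells this held for 3 of 8 (Hsph1, Hsp90aa1 and Hspa1a; 13.3% of all genes), and in the other direction for 1, Dnajb1 (19.9%). Lineages did not overlap for 51.9% of all genes in wild-type and 56.4% in Tet2-/- cells. Th17 arrays lay wholly below Th1 arrays for 4 of 8 members among wild-type cells (Hsph1, Hsp90aa1, Dnaja1 and Hspa1a; 26.7% of all genes) and for 2 of 8 among Tet2-/- cells (Hsph1 and Hspa1a; 27.6%), and wholly above for 1, Dnajb1 among Tet2-/- cells (28.8%). With wild-type cells and quantile normalization all 8 read lower in Th17 cells, against 5 on the deposited values, so the direction of the small differences depended on the scaling. Some of these comparisons share arrays: each group enters a genotype and a lineage comparison.

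For several members the gap between the 2 arrays of a group was wider than the differences between groups. From replicate 1 to replicate 2 of the Th1 wild-type cells the gap was 0.60 for Hspe1, 0.53 for Hsph1 and 0.35 for Hspd1, and positive for all 8 members (54.6% of all genes). Only 1.49% of genes had a wider gap there than Hspe1 and 2.73% than Hsph1. The same array was higher for 16 of 17 endoplasmic reticulum chaperones (median 0.16), 14 of 16 mitochondrial chaperones and proteases (median 0.21) and 12 of 14 subunits of the TRiC chaperonin and prefoldin (median 0.21), against a median of 0.02 for all genes. Small heat shock proteins were not (4 of 10 higher, median -0.08), and 0 of 4 measured heat shock factor genes were. In the other groups 4 to 6 of the 8 members were higher in replicate 2. In Th17 Tet2-/- cells replicate 2 was also higher for 19 of 19 cell cycle genes (median 0.48) and lower for 18 of 20 immediate early genes (median -0.21), beside a median of 0.07 for the chaperones. The part of these differences in the chaperone values was not tested.

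**Figure D3:**
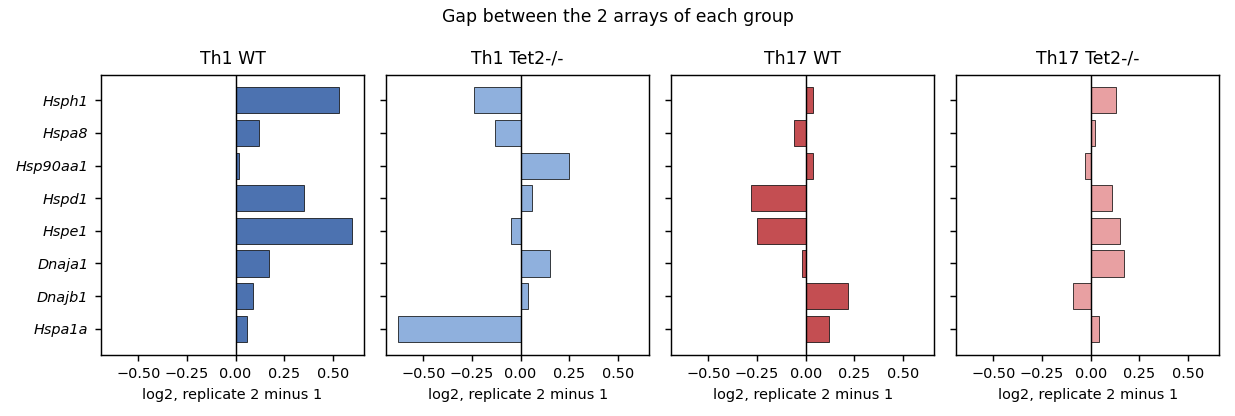
Log2 value of replicate 2 minus replicate 1 (horizontal axis) for each chaperone in the 4 groups. Bars reach 0.60 and 0.53 for Hspe1 and Hsph1 in wild-type Th1 cells and -0.63 for Hspa1a in Tet2-/- Th1 cells.

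The wider chaperone network was read from lists of further genes. These lists were heat shock factors, other heat-inducible genes, HSP70 relatives, J-domain proteins, co-chaperones, TRiC and prefoldin, mitochondrial, endoplasmic reticulum and small heat shock proteins, and proteasome subunits. For Tet2 loss, 0 of their genes were called by limma in Th1 or in Th17 cells, and list medians lay between -0.12 and 0.07. In each list 0 to 2 genes had an unadjusted p under 0.05, as did 5.74% of all genes in Th1 and 4.25% in Th17 cells. Among the genes with the smallest p of their list in Th1 cells were Chordc1, a heat-inducible HSP90 co-chaperone (-0.34, adjusted p = 0.855), Hspbp1, an HSP70 co-chaperone (0.32, 0.827), Hspa13 (-0.33, 0.824), Vbp1, a prefoldin subunit (-0.42, 0.853), Yme1l1, a mitochondrial protease (-0.31, 0.852) and Hsp90b1, the HSP90 of the endoplasmic reticulum (-0.27, 0.858). In Th17 cells they were Sgta, a co-chaperone (0.34, 0.999), Hscb, a mitochondrial J-domain protein (0.33, 0.96), Pfdn4, a prefoldin subunit (-0.30, 0.999), and Sil1, a co-chaperone of the endoplasmic reticulum (0.12, 0.999). Cell cycle genes read lower without Tet2 in Th1 cells (18 of 19, median -0.24, 0 called, 5 at an unadjusted p under 0.05). Immediate early genes read higher (18 of 20, median 0.16, 0 called, 2 at an unadjusted p under 0.05). Of all genes 47.8% read lower there, and 5.74% had an unadjusted limma p under 0.05. The part of the cell cycle and immediate early genes in the chaperone values was not tested.

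Between lineages 13 of the 139 network genes passed the test in wild-type cells (9.35%, 11 higher and 2 lower in Th17) and 7 in Tet2-/- cells (5.04%, 6 higher and 1 lower), against 8.47% and 10.4% of all genes, and several calls and list directions depended on the scaling of the arrays. On the deposited values and after quantile normalization, Dnajb4 and Pdia4 rose in Th17 cells of both genotypes, Bag2 and Dnajc19 rose and Htra2 fell in wild-type cells, and Hsf2 fell in both. Dnajb4, a heat-inducible relative of Dnajb1, rose 1.44-fold in wild-type and 1.72-fold in Tet2-/- cells (limma adjusted p = 0.012 and 0.000755). Pdia4, a disulfide isomerase of the endoplasmic reticulum, rose 1.74-fold in wild-type (adjusted p = 0.00501) and 1.66-fold in Tet2-/- cells (0.00711). Bag2, a nucleotide exchange factor of HSP70, rose 1.51-fold (adjusted p = 0.0213) and Dnajc19, a J-domain protein of the mitochondrial inner membrane, by 0.59 on the log2 scale (0.01). The mitochondrial protease Htra2 fell by 0.59 on that scale (0.0221).

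After quantile normalization 7 and 6 network genes were called (4 higher and 3 lower, then 2 higher and 4 lower), and other calls on the deposited values were lost. Hspa4l, a relative of Hsph1, rose 1.42- and 1.48-fold in wild-type and Tet2-/- Th17 cells (limma adjusted p = 0.0282 and 0.0124, and 0.11 and 0.0565 after it). In wild-type cells Dnajc8 rose 1.47-fold (0.0434, then 0.193), Rpap3 1.46-fold (0.0276, then 0.0712), Unc45a, a myosin co-chaperone, 1.43-fold (0.0404, then 0.12), Trap1, the mitochondrial HSP90, 1.47-fold (0.0162, then 0.0502), Dnajb9, which assists the HSP70 of the endoplasmic reticulum, 1.55-fold (0.0154, then 0.0511) and the proteasome subunit Psmc5 1.32-fold (0.0446, then 0.218). In Tet2-/- cells this held for Dnajb9 (1.39-fold, 0.0499, then 0.19), Dnajc3 (1.40-fold, 0.0326, then 0.182) and Sdf2l1 (1.35-fold, 0.0377, then 0.191), all of the endoplasmic reticulum. Calls gained after quantile normalization were all lower in Th17 cells: Hspa13 in wild-type cells (-0.50, adjusted p = 0.0275), and Dnajb5 (-0.48, 0.0163), Hspbp1 (-0.52, 0.0171) and Psma7 (-0.42, 0.0407) in Tet2-/- cells.

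Of all 19938 genes, 9418 read higher in wild-type and 9722 in Tet2-/- Th17 cells on the deposited values. By limma 5.3% and 7.14% of all genes were called higher, and 3.17% and 3.29% lower. As groups, 22 of 26 co-chaperones read higher in wild-type Th17 cells (median 0.17, 3 called) and 20 of 26 in Tet2-/- cells (median 0.10, 0 called). After quantile normalization 16 and 10 of 26 did, which therefore turned the second. Subunits of TRiC and prefoldin read higher for 13 and 12 of 14 (0 called by limma in both), against 11 and 7. J-domain proteins read higher for 13 and 12 of 16 (2 and 1 called), against 10 and 7. Mitochondrial genes did so for 14 and 11 of 16 (2 called higher and 1 lower in wild-type, 0 called in Tet2-/- cells), against 9 and 8, and endoplasmic reticulum genes for 10 and 12 of 17 (2 and 4 called), against 7 and 7. HSP70 relatives read higher for 4 and 5 of 8 (1 called higher in each), against 5 and 6 after quantile normalization (1 called lower in wild-type, 0 in Tet2-/- cells). Other heat-inducible genes read higher for 7 and 5 of 13 (2 called in each), against 7 and 6 (1 called in each), small heat shock proteins for 4 and 3 of 10 (0 called by limma), against 6 and 5 (0 called), and proteasome subunits for 15 and 19 of 25 (1 and 0 called), against 8 and 10 after quantile normalization. The list of other heat-inducible genes overlaps the rest. Dnajb4 and Hspa4l each stand in 2 of these lists, as do further genes such as Dnaja4, Hspa2, Bag3, Fkbp4 and Chordc1. No common direction of the chaperone network between lineages can therefore be given.

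Hsf2, a relative of Hsf1 with roles in development and in the stress response, was lower in Th17 cells. It fell 1.78-fold in wild-type (from a group mean of 8.73 to 7.90, adjusted p = 0.00528) and 1.59-fold in Tet2-/- cells (from 8.59 to 7.92, adjusted p = 0.0154, both by limma), the 1 called of 4 measured genes of its list. Hsf1 was not analysed here. Of 11 measured kinases and receptors that depend on HSP90, 4 rose and 1 fell in wild-type Th17 cells, where 5.3% of all genes rose and 3.17% fell, and after quantile normalization 3 rose and 1 fell. Ahr, the aryl hydrocarbon receptor, rose 3.17-fold (adjusted p = 3.34e-05), the kinase Map3k1 1.75-fold (0.00359) and Zap70, a kinase of T cell receptor signalling, 1.54-fold (0.0145), while the glucocorticoid receptor Nr3c1 fell 1.36-fold (0.0278). In Tet2-/- cells Ahr rose 3.63-fold, Map3k1 1.94-fold and Jak1 1.71-fold (adjusted p = 1.19e-05, 0.000861 and 0.00191). Hsp90aa1 itself differed by -0.12 and 0.01 in the same comparisons.

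**Figure D4:**
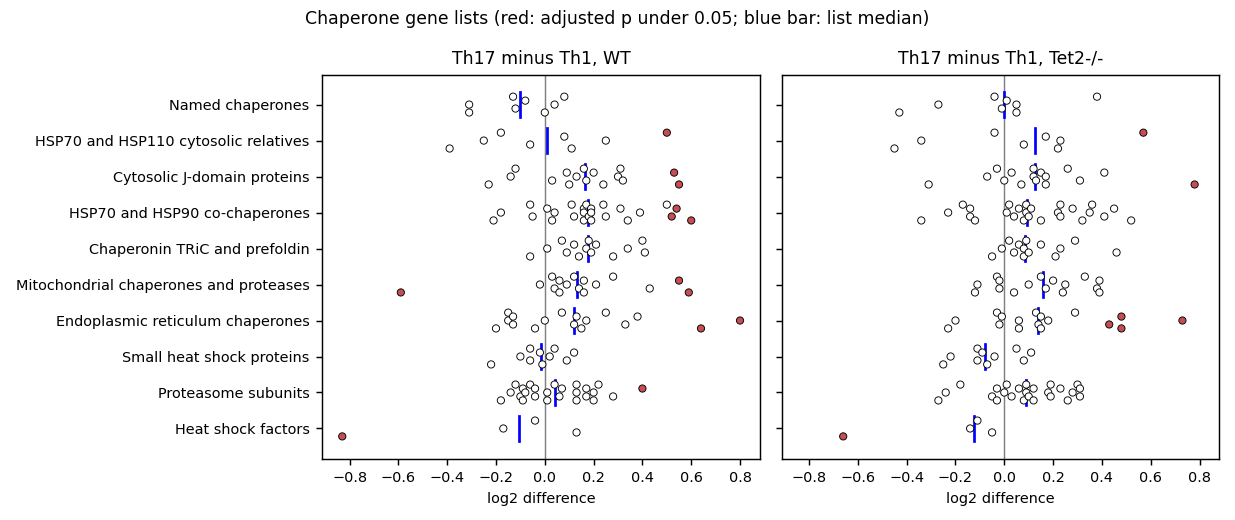
Log2 difference between Th17 and Th1 cells (horizontal axis) of each measured gene in 10 chaperone-related lists (rows), other heat-inducible genes not shown, in wild-type (left) and Tet2-/- cells (right); red points passed an adjusted p of 0.05 and blue bars are list medians. The 8 named chaperones hold no red point, Hsf2 is the red point at -0.83 and -0.66, and Pdia4 the one at 0.80 and 0.73.

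The genes whose values followed the mean of the 8 chaperones most closely over the 8 arrays were Kcnt2 (Pearson r = 0.986), Rcan2 (0.975), Csf2 (0.965), Pramel5 (0.958) and Cacybp (0.953). Without the 2 arrays farthest from the median of that mean, r was 0.798, 0.641, 0.879, 0.305 and 0.552, so the likeness rested in part on those arrays, 1 of which was Th1 wild-type replicate 2 (0.22 above the mean of the set). For the deviations from the group means the closest were Ethe1, Dkk2, Psmd7, Ddx20 and Hdac3, with r between 0.998 and 1. These deviations are mirrored within each group of 2, so the 8 points hold only 4 separate values. The values are descriptions of these arrays, picked from all genes.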

How the data were processed

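Biotin-labelled total RNA was measured on Affymetrix arrays, 1 per sample. The authors deposited log2 values. RMA and Partek are the tools that the submitters' processing notes name, and the base of the logarithm was inferred from how high they reach. Versions, filters and genome build are not given in the sources used here. Between arrays the distributions were not identical (upper quartiles of 7.81 to 7.96), so quantile normalization still moved values. Array summaries cannot show a change in total RNA, and RMA narrows differences of dim or very bright probesets. Precision is limited by the number of arrays, 2 a group.

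Of 35556 probesets, 21789 had 1 symbol, 1621 several and 12146 none listed. Entrez IDs matched 21698 of them in a GRCm38.p6 gene table, which changed 0 symbols. The brightest probeset stood for each of 19938 genes. The 4 group means were estimated jointly in limma 3.58.1 (R 4.3.3; lmFit and eBayes, trend on; 4 residual and 8.44 prior degrees of freedom). Tests were two-sided, and p was adjusted over all genes by the Benjamini-Hochberg method. SE and 95% intervals come from that fit. The code was tested on simulated data.

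The members and lists were chosen with earlier results of these data known. All members are named. Of each other list the rule names called genes with the smallest p (up to 3), otherwise the gene with the smallest p, and a selection of these is given. Alternatives covered scaling, probesets, filter, variance, block, covariate and each array left out; leaving out 2 arrays by Y-linked level, and the scaling of the lists, were added after seeing the data.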

Additional observations from a re-analysis of the deposited data

How the results depend on the processing

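Of 752 member values under 19 alternatives, 705 were counted as unchanged in direction and side of the threshold. That count includes Hspe1 between wild-type lineages, at 0 with all arrays, which ran from -0.3 to 0.3 with an array left out. It also includes settings that cannot move a difference, such as another filter or variance, the block, or an array left out elsewhere. A further 45 changed sign. The rest were Dnajb1 with dim genes left out, which passed the threshold only there, and Hspa1a without Th1 Tet2-/- replicate 2. Both were between Tet2-/- lineages, and the Hspa1a value (-0.75) rests on a single array in that Th1 group. The cause was not tested unless stated. The number of arrays and, for Hspa1a, a level near the array median limit what could be seen.

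Sign changes by setting were as follows. With the mean of a gene's probesets, the Tet2 effect became 0.01 for Hspa8 in Th1 cells and 0.01 for Dnaja1 in Th17 cells, the difference of effects 0.05 for Hspd1 (1 member lower instead of 2), and the lineage difference 0.12 for Dnaja1 in wild-type and 0.05 for Hspd1 in Tet2-/- cells. With quantile normalization the lineage differences became -0.02 for Hspd1 and -0.06 for Dnajb1 in wild-type cells, and Hspe1 went from 0.00 to -0.07 (8 of 8 lower), and 0.05 for Hspa8, -0.03 for Hsp90aa1 and -0.08 for Dnaja1 in Tet2-/- cells. Median centring gave 0.01 for Hspd1 in Tet2-/- cells. With the 2 arrays of extreme Y-linked level left out (an alternative chosen after seeing the data), the difference of effects was -0.05 for Hsph1 and 0.04 for Hspd1, and the lineage difference -0.10 for Hspd1 in wild-type and -0.03 for Hspe1 and -0.03 for Dnaja1 in Tet2-/- cells.

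With each array left out in turn, the Tet2 effect in Th1 cells ran from -0.10 to 0.03 for Hspa8, -0.31 to 0.04 for Hspd1, -0.42 to 0.18 for Hspe1 and -0.35 to 0.28 for Hspa1a, with 5 to 8 members lower. In Th17 cells it ran from -0.20 to 0.05 for Hspe1 and -0.10 to 0.07 for Dnaja1. The difference of effects ran from -0.23 to 0.30 for Hsph1, -0.03 to 0.10 for Hspa8, -0.22 to 0.13 for Hspd1, -0.25 to 0.35 for Hspe1 and -0.44 to 0.20 for Hspa1a, with 1 to 5 members lower. The lineage difference ran from -0.14 to 0.22 for Hspd1 and -0.02 to 0.19 for Dnajb1 in wild-type cells, and from -0.30 to 0.30 for Hspe1, at 0.00 with all arrays. In Tet2-/- cells it ran from -0.11 to 0.02 for Hspa8, -0.12 to 0.13 for Hsp90aa1, -0.06 to 0.04 for Hspd1, -0.03 to 0.12 for Hspe1 and -0.03 to 0.14 for Dnaja1, with 0 to 1 members called.

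The count of all genes called moved as well. For Tet2 loss in Th1 cells it was 0 with all probesets tested, with 2 groups alone and without the Y-linked extremes, and 0 to 2 with an array left out. In Th17 cells it was 0 to 9 and for the difference of effects 0 to 4 with an array left out (9 and 4 without Th17 Tet2-/- replicate 1, 2 and 0 without Th17 wild-type replicate 1). Between lineages, of 1689 and 2078 genes called in wild-type and Tet2-/- cells, 622 and 1064 were called with all probesets tested, and 808 and 975 without the Y-linked extremes. Leaving out an array gave 667 to 1560 and 815 to 2383, the lowest when replicate 2 of wild-type or replicate 1 of Tet2-/- Th17 cells was missing. Counts also fell to 1013 without Th1 wild-type replicate 1, 1146 without Th17 Tet2-/- replicate 2, and 1003 and 1251 without Th1 Tet2-/- replicates 1 and 2. Between Tet2-/- lineages 1 member, Dnajb1, was called with dim genes left out, where fewer genes were tested.

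The replicate numbers showed no pairing: deviations of same-numbered arrays correlated between -0.189 and 0.0534 across groups. With the number as a replicate block, 0 calls on members changed. Member values moved by 0, but every group holds both replicate numbers, so the block cannot move a difference between groups. The unmoved values therefore say nothing about pairing.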
